A study of Mus musculus with 8 samples.

Results

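The genes described here are the 10 main heat-shock chaperones of the mouse cytosol and mitochondria, measured by bulk RNA-seq in CD8+ T cells from the spleen. They were picked by symbol, with earlier results of these data known, and make up 10 of the 22520 genes and assembled transcripts in the deposited table. *Hspa1a*, *Hspa1b*, *Hspa8*, *Hsp90aa1*, *Hsp90ab1*, *Hsph1* and *Dnajb1* encode the 7 cytosolic chaperones, and *Hspa9*, *Hspd1* and *Hspe1* the 3 mitochondrial ones. The cells were kept under stimulation with anti-CD3, anti-CD28 and IL-2, and from day 3 they received either 40 µM DADA or the solvent DMSO. DADA is diisopropylamine dichloroacetate, an inhibitor of pyruvate dehydrogenase kinase. RNA was taken from both groups on day 6, with 4 libraries for each group, so that the groups share the stimulation and differ in the agent of the last days in culture. The libraries were labelled as biological replicates, and the study took such cells from wild-type mice, of which its list of animals names male C57BL/6J mice among others. Neither source says whether the libraries came from separate mice or ties a strain, sex or age to this experiment, so the p-values measure the spread between these libraries.

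Chaperones bind unfolded or partly folded proteins and help them fold or refold with the energy of ATP. HSP70 proteins hold short stretches of an unfolded chain, J-domain proteins such as DNAJB1 bring them their clients and start ATP hydrolysis, and HSP110 proteins such as HSPH1 exchange the nucleotide. HSP90 proteins act later, on kinases, steroid receptors and other clients that are nearly folded. In mitochondria, mortalin (HSPA9) pulls imported chains across the inner membrane, and the chaperonin HSP60 (HSPD1) encloses them under a lid of HSP10 (HSPE1). Heat-shock factors, above all HSF1, bind repeated GAA units in the promoters of many of these genes under protein-damaging stress. In T cells, activation itself raises the demand for folding, since the cells grow and divide fast.

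All 10 chaperone genes passed the filter on low values, which was at least 1 FPKM in at least 4 of the 8 libraries. FPKM divides the fragments of a gene by the length of its transcript and by the depth of the library, so levels of different genes can be set side by side. Of the 10 genes, 5 rose and 4 fell in DADA-treated CD8+ T cells, and *Hsp90ab1* did not pass the test (limma on log2(FPKM + 1), with p-values adjusted over the whole table and a threshold of 0.05). Among all 10666 genes tested, 66.2% passed in either direction, 30.9% as higher and 35.3% as lower, so that a call alone was common. The 4 DADA libraries lay wholly above or wholly below the 4 DMSO libraries for the same 9 chaperone genes, as they did for 60.6% of all genes tested (28.4% above, 32.2% below). Such a separation has p = 0.0286 in a two-sided exact permutation test, the smallest that 4 against 4 libraries allow. Of the 7 cytosolic genes, 5 rose, *Hsp90aa1* fell and *Hsp90ab1* did not pass, and the 3 mitochondrial genes fell. The difference between the compartments was not tested. The median log2 fold change was 0.38 over the cytosolic and -0.51 over the mitochondrial genes, beside -0.02 over all genes tested. In bulk RNA, fewer cells of a type and less RNA per cell cannot be told apart.

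**Figure D1:**
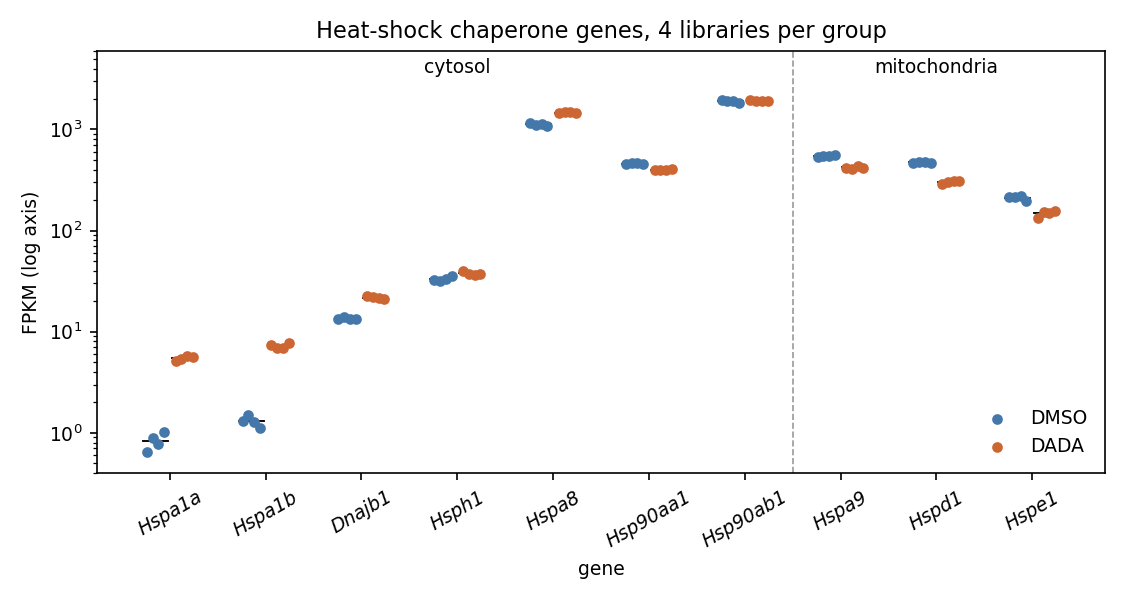
FPKM on a log axis of the 10 chaperone genes, cytosolic genes left and mitochondrial genes right of the dashed line, with a point for each of the 4 DMSO (blue) and 4 DADA (orange) libraries and a short black line at each mean. The DADA points lie above the DMSO points for *Hspa1a*, *Hspa1b*, *Dnajb1*, *Hsph1* and *Hspa8*, below them for *Hsp90aa1*, *Hspa9*, *Hspd1* and *Hspe1*, and level with them for *Hsp90ab1*.

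The FPKM values carry no depth, which was estimated at 13300000 to 16210000 fragments with DMSO and 15460000 to 19320000 with DADA. The study states only a minimum data volume per sample, and the estimate was not checked against it. The 7 markers of CD8 T cells (*Cd8a*, *Cd8b1*, *Cd3d*, *Cd3e*, *Cd3g*, *Cd2* and *Lck*) were all at 1 FPKM or more in at least 4 libraries and summed to between 1026 and 1302 FPKM, so the defining markers of the labelled cell type were present. Of the 6 B cell markers, 4 were below 1 FPKM in all libraries, *Pax5* among them at 0. *Cd79b* was at 2.18 to 3.47 FPKM over all libraries with overlap between the groups, and *Ebf1* was at 0.183 to 0.313 FPKM with DMSO and 0.866 to 1.42 FPKM with DADA. *Csf1r* and *Adgre1* of the myeloid markers were listed at 0 too, but *Cst3* was at 59.8 to 77.1 FPKM and *Cd68* at 3.43 to 5.54 FPKM. *Cd4* was at most 0.411 FPKM, whereas *Zbtb7b* of the same list was at 14.8 to 16.7 FPKM. The 6 erythroid markers summed to at most 0.426 FPKM.

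The inducible HSP70 genes had the largest changes among the 10 genes. *Hspa1a* (ENSMUSG00000091971) was at 0.640, 0.894, 0.773 and 1.02 FPKM in DMSO libraries 1 to 4 and at 5.17, 5.31, 5.72 and 5.56 FPKM in DADA libraries 1 to 4. *Hspa1b* (ENSMUSG00000090877), its neighbour that encodes nearly the same protein, was at 1.30, 1.50, 1.28 and 1.11 FPKM with DMSO and at 7.44, 6.86, 6.90 and 7.66 FPKM with DADA. Both genes were thus close to the lower limit of what was tested in DMSO-treated cells, and both were several times higher in each DADA library. The mean of *Hspa1a* rose 6.54-fold, from 0.832 ± 0.164 to 5.44 ± 0.247 FPKM (SD, n = 4), and the lowest DADA library was 5.06 times the highest DMSO library. *Hspa1b* rose 5.57-fold, from 1.30 ± 0.162 to 7.22 ± 0.397 FPKM (SD, n = 4). On the log2(FPKM + 1) scale, which understates the change of low genes, limma gave *Hspa1a* a log2 fold change of 1.82 ± 0.0710 (SE, adjusted p = 1.17e-08) and *Hspa1b* one of 1.84 ± 0.0635 (SE, adjusted p = 4.52e-09). *Hspa1a* passed the filter through its DADA libraries, as only 1 DMSO library reached 1 FPKM, so that it was tested because of the group in which it is high. At the estimated depth, its values stood for about 29.0 to 45.0 fragments in a DMSO library and 262 to 313 in a DADA library.

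Reads of *Hspa1a* and *Hspa1b* cannot always be told apart. Of the stretches of 150 bases in the annotated *Hspa1a* transcript, 39.7% also occurred in transcripts of other genes, more of them in *Hspa1b* than in any other. For *Hspa1b* this share was 40.5%. The split between both genes is therefore uncertain, and their summed level is given too, which depends less on this split but is not free of it, since FPKM divides by each gene's own length and each gene shared stretches with 2 other genes. The sum was 1.94, 2.40, 2.05 and 2.13 FPKM with DMSO and 12.6, 12.2, 12.6 and 13.2 FPKM with DADA. With both genes fitted as 1 sum, limma gave a log2 fold change of 2.13 ± 0.0530 (SE, adjusted p = 3.93e-10). Even after this rise, both genes stayed far down the order of expression, *Hspa1a* at rank 7898 to 8150 and *Hspa1b* at rank 7134 to 7389 of the 22520 features in the DADA libraries.

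The promoters of both genes are shown because the genes rose together and because heat-shock factors bind repeats of GAA. RefSeq promoters of 300 bases (GRCm38.p6) were given for 6 of the 10 genes, *Hspa1a*, *Hspa1b*, *Hsph1*, *Dnajb1*, *Hspd1* and *Hspe1*. The 250 bases before each start lie at chr17:34972157-34972406 for *Hspa1a* and chr17:34959239-34959488 for *Hspa1b*, both on the minus strand, and are printed 5′ to 3′ as the gene reads. Capitals mark a pair of GAA units facing each other, GAANNTTC or TTCNNGAA, each of which reads the same on both strands.
Hspa1a: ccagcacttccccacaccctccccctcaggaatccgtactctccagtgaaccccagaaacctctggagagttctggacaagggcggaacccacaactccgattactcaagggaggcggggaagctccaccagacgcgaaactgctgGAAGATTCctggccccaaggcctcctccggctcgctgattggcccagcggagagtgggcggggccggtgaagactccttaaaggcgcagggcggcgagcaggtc
Hspa1b: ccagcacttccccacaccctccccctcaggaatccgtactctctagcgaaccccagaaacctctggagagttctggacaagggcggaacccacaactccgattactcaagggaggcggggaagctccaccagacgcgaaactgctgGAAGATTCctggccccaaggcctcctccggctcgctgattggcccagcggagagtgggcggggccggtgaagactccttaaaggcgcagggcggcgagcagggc
The promoters differ at 3 of 250 positions, and each holds 1 marked pair, GAAGATTC, from 104 to 97 bases before the start. A pair of this kind was present in 15.1% of the 32851 mouse promoters, searched over their full 300 bases, so its presence is common.

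The genes of DNAJB1, the main J-domain partner of inducible HSP70, and of HSPH1, its nucleotide exchange factor, moved the same way to a smaller extent. *Dnajb1* (ENSMUSG00000005483) was at 13.4, 13.9, 13.4 and 13.3 FPKM with DMSO and at 22.3, 22.0, 21.4 and 20.9 FPKM with DADA. The libraries of a group lay close together and the groups were far apart, so the mean rose by 60.2%, from 13.5 ± 0.258 to 21.7 ± 0.637 FPKM (SD, n = 4). The change was 0.64 ± 0.0314 (SE) as a log2 fold change by limma, with adjusted p = 5.78e-08. *Hsph1* (ENSMUSG00000029657) was at 32.4, 31.9, 33.2 and 35.2 FPKM with DMSO and at 39.6, 37.4, 36.6 and 37.3 FPKM with DADA. The highest DMSO library was just below the lowest DADA library, and the mean rose by 13.7%, from 33.2 ± 1.44 to 37.7 ± 1.32 FPKM (SD, n = 4). Its log2 fold change, 0.18 ± 0.0368 (SE, adjusted p = 0.00157 by limma), was the smallest among the 9 genes that passed the test, and below the median size of 0.21 over all genes tested. No stretch of 150 bases of the *Dnajb1* or *Hsph1* transcripts occurred in another gene's transcripts.

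The promoters of *Dnajb1* and *Hsph1* are shown beside those of the inducible HSP70 genes, since the 4 genes rose with DADA. The *Dnajb1* window lies at chr8:83607925-83608174 on the plus strand and the *Hsph1* window at chr5:149636337-149636586 on the minus strand (GRCm38.p6, RefSeq), with the same marking.
Dnajb1: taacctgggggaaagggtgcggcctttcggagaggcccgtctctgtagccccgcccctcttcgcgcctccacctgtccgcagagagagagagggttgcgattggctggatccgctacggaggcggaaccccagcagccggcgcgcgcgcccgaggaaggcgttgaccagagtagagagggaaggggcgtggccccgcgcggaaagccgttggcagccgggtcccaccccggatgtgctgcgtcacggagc
Hsph1: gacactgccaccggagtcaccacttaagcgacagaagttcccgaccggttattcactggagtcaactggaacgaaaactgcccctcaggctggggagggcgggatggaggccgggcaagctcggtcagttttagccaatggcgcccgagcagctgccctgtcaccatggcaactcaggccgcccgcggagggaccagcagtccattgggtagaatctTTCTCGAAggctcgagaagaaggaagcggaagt
*Hsph1* holds the pair TTCTCGAA from 33 to 26 bases before this start, and the *Dnajb1* window holds no such pair. A longer run, in which the pair goes on with another unit after the same spacing of NN, so that GAA, TTC and GAA or TTC, GAA and TTC follow each other, was found in 198 of the 32851 promoters (0.603%). *Hsph1* has 1 such match in the bases after its start, and *Hspa1a* and *Dnajb1* have none in their 300 bases. A match is a description of the letters, and its absence says nothing about the factor.

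HSC70, encoded by *Hspa8*, is the constitutive HSP70 that works in all cells. *Hspa8* (ENSMUSG00000015656) was at 1157, 1114, 1136 and 1091 FPKM with DMSO and at 1456, 1476, 1482 and 1459 FPKM with DADA. It was thus one of the most abundant transcripts in both groups, at rank 51 to 54 with DMSO and 32 to 39 with DADA, and every DADA library was higher. The mean rose by 30.6%, from 1124 ± 28.2 to 1468 ± 12.7 FPKM (SD, n = 4), or 0.38 ± 0.0230 (SE) as a log2 fold change (adjusted p = 2.34e-07 by limma). In FPKM this rise was much larger than that of the inducible genes. Of the *Hspa8* stretches of 150 bases, 55.4% also occurred in other genes' transcripts, more of them in the pseudogene *Gm15459* than in any other gene. The summed level of *Hspa1a* and *Hspa1b* was 0.190% ± 0.0204 of that of *Hspa8* with DMSO and 0.862% ± 0.0342 with DADA (SD, n = 4). This ratio of inducible to constitutive HSP70 differed by 2.19 on the log2 scale without overlap between the groups (two-sided exact permutation test, p = 0.0286, adjusted p = 0.0429 over 3 ratios).

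**Figure D2:**
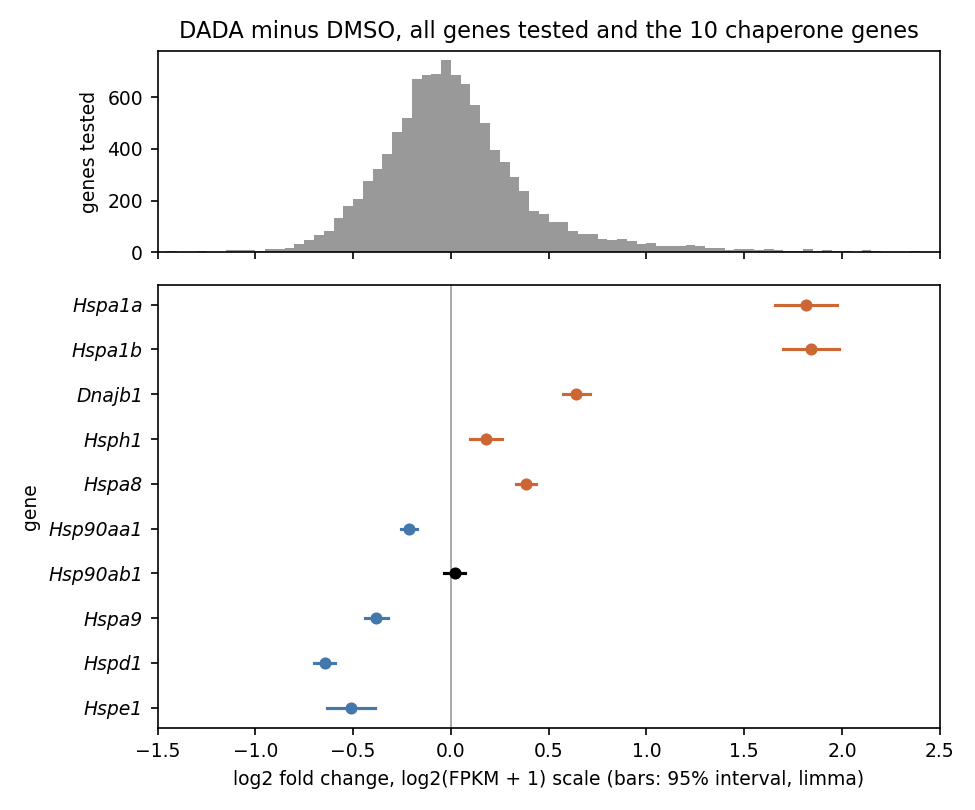
Log2 fold changes of the 10 chaperone genes, DADA against DMSO on the log2(FPKM + 1) scale, with 95% intervals from limma (orange rose, blue fell, black did not pass), under a histogram of the log2 fold changes of all genes tested. *Hspa1a* and *Hspa1b* lie near 1.8, the other genes between -0.65 and 0.64. The axis leaves out 65 of the 10666 genes tested.

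The HSP90 genes went apart. *Hsp90ab1* (ENSMUSG00000023944), the constitutive form, was at 1947, 1911, 1916 and 1830 FPKM with DMSO and at 1947, 1909, 1919 and 1930 FPKM with DADA. It was the most abundant of the 10 genes, at rank 18 to 22 with DMSO and 16 to 21 with DADA, and the values of both groups overlapped. Its mean was 1901 ± 49.8 FPKM with DMSO and 1926 ± 16.1 FPKM with DADA (SD, n = 4), a difference of 0.02 ± 0.0239 (SE) in log2 fold change by limma, with adjusted p = 0.499 and a 95% interval from -0.03 to 0.07 (-2.35% to 5.16%). *Hsp90aa1* (ENSMUSG00000021270), the stress-inducible form, was at 458, 461, 462 and 460 FPKM with DMSO and at 393, 394, 397 and 404 FPKM with DADA. The DADA libraries were all lower, and the DMSO libraries lay within a few FPKM of each other. The mean fell by 13.7%, from 460.1 ± 1.72 to 397 ± 5.19 FPKM (SD, n = 4), or -0.21 ± 0.0181 (SE) as a log2 fold change (adjusted p = 3.38e-06 by limma). *Hsp90aa1* was thus the 1 gene among the 7 cytosolic ones that fell. Of its stretches of 150 bases, 36.2% also occurred in other genes' transcripts, more of them in the pseudogene *Gm12346* than in any other gene. None of the *Hsp90ab1* stretches did. *Hsp90aa1* was at 24.2% ± 0.667 of the level of *Hsp90ab1* with DMSO and 20.6% ± 0.332 with DADA (SD, n = 4), a log2 difference of -0.23 in FPKM ratio without overlap (two-sided exact permutation test, p = 0.0286, adjusted p = 0.0429 over 3 ratios).

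The 3 mitochondrial genes fell. *Hspd1* (ENSMUSG00000025980), which encodes HSP60, was at 468, 479, 474 and 469 FPKM with DMSO and at 289.8, 302, 306 and 308 FPKM with DADA. *Hspe1* (ENSMUSG00000073676), which encodes HSP10, was at 215, 215, 219 and 195 FPKM with DMSO and at 132, 153, 151 and 157 FPKM with DADA. In both genes the DADA libraries were below all DMSO libraries, although *Hspe1* was low in DMSO 4 and in DADA 1 beside the other libraries of their groups. *Hspd1* fell by 36.2%, from 472 ± 5.35 to 302 ± 8.22 FPKM (SD, n = 4), or -0.65 ± 0.0235 (SE) as a log2 fold change (adjusted p = 6.83e-09 by limma). *Hspe1* fell by 29.9%, from 211 ± 10.7 to 148 ± 11.0 FPKM (SD, n = 4), or -0.51 ± 0.0549 (SE) as a log2 fold change (adjusted p = 1.84e-05 by limma). Of the stretches of 150 bases, 18.6% for *Hspd1* and 14.1% for *Hspe1* also occurred in 1 other gene each. *Hspa9* (ENSMUSG00000024359), which encodes mortalin, was at 536, 545, 549.6 and 564 FPKM with DMSO and at 414, 411, 438 and 419 FPKM with DADA. It shared no such stretch with another gene, and its groups lay far apart beside the spread within them. The mean of *Hspa9* fell by 23.3%, from 548 ± 11.7 to 421 ± 12.3 FPKM (SD, n = 4), or -0.38 ± 0.0262 (SE) as a log2 fold change (adjusted p = 6.55e-07 by limma).

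From the *Hspd1* start used here, *Hspd1* and *Hspe1* are read away from each other from one shared stretch of DNA. It is shown because both genes fell. This start is the one with the lower position of 2 listed *Hspd1* starts. The other listed start lies past the *Hspe1* start, so from there both genes overlap. The 215 bases between the lower *Hspd1* start and the *Hspe1* start lie at chr1:55087933-55088147 (GRCm38.p6, RefSeq). They are printed on the plus strand, so that *Hspd1* is read to the left and *Hspe1* to the right. Capitals mark the run of GAA units as above.
Hspd1 to Hspe1: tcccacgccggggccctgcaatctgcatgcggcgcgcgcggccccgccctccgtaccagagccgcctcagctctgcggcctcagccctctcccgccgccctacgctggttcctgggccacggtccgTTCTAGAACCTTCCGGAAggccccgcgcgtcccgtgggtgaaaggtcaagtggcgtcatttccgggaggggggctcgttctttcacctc
The run of 18 bases lies from 89 to 72 bases before the *Hspe1* start and holds 2 overlapping matches of the longer run of units, which was present in 0.603% of promoters. Before the start, a single pair was marked for *Hspa1a*, *Hspa1b* and *Hsph1*, which rose, and the longer run for *Hspd1* and *Hspe1*, which fell. *Hsph1* has the longer run only after its start. No pair was found for *Dnajb1*, which rose, or in the 300 bases around the other listed *Hspd1* start. A link between these units and the direction of change was not tested. The level of *Hspd1* was 2.24 ± 0.110 times that of *Hspe1* with DMSO and 2.04 ± 0.105 times with DADA (SD, n = 4). These FPKM ratios overlapped between the groups, with a log2 difference of -0.13 (two-sided exact permutation test, p = 0.0857, adjusted p = 0.0857 over 3 ratios). Without DADA 1, the difference was -0.17 with p = 0.0286 (exact permutation test).

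**Figure D3:**
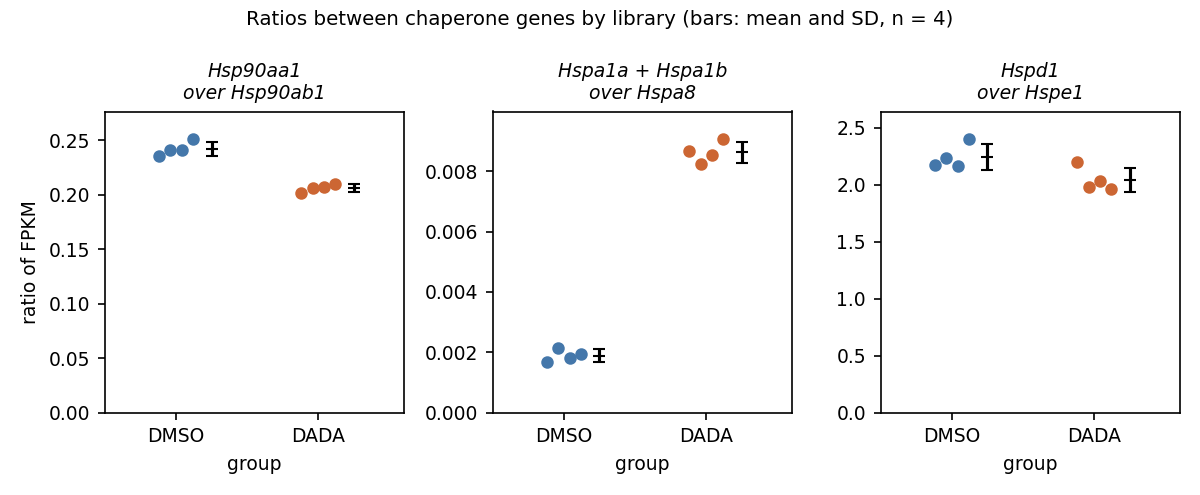
Ratios of FPKM between pairs of chaperone genes in each library, with the mean and SD (n = 4) as a bar beside the points and axes that start at 0. *Hsp90aa1* over *Hsp90ab1* was lower and *Hspa1a* plus *Hspa1b* over *Hspa8* higher in all DADA libraries, and *Hspd1* over *Hspe1* overlapped between the groups.

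Summed over the 10 genes, the chaperone transcripts took 1.03% to 1.06% of the FPKM of a library with DMSO and 1.05% to 1.09% with DADA. The sums themselves overlapped, at 4660 to 4828 FPKM with DMSO and 4706 to 4763 FPKM with DADA. Within this nearly level total, the cytosolic sum was higher by 329 FPKM (3535 ± 75.0 with DMSO and 3864 ± 8.18 with DADA, SD, n = 4) and the mitochondrial sum changed by -362 FPKM (1232 ± 10.9 and 870.2 ± 25.8, SD, n = 4). *Hspa8* alone gained 344 FPKM, more than the whole cytosolic difference. The order of levels in FPKM was the same in both groups but for 1 exchange. With DMSO it ran from *Hsp90ab1* through *Hspa8*, *Hspa9*, *Hspd1*, *Hsp90aa1*, *Hspe1*, *Hsph1*, *Dnajb1* and *Hspa1b* to *Hspa1a*, and with DADA *Hsp90aa1* stood before *Hspd1*. Neighbours in these orders did not overlap in either group, the closest pair by ratio being *Hspd1* at 468 to 479 FPKM and *Hsp90aa1* at 458 to 462 FPKM with DMSO.

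Deviations from the group means were compared between the 10 genes over the 8 libraries, as a description, since all values of a library share its depth and scaling. The median Pearson correlation over the 45 pairs was -0.04, with a range from -0.85 to 0.83. *Hspd1* and *Hspe1* had the highest value, 0.83, while *Hspa1a* and *Hspa1b* had -0.26. Between *Hspa1a*, *Hspa1b*, *Dnajb1* and *Hsph1*, the correlations ran from -0.43 to 0.23. Over 8 libraries, these values cannot decide whether these genes deviate together. *Hspa1a* and *Hspa1b* rest on few fragments with DMSO and share stretches, which adds to the spread of their values. The 6259 genes at 10 FPKM or more on average were ranked by likeness to the mean deviation of these genes. The top of this ranking was *Nudcd3* (r = 0.95), *Asxl1* (r = 0.94) and *Gng2* (r = 0.94), again over 8 libraries, and 19 genes were above 0.9. The number expected above 0.9 by chance was not computed. With so many genes ranked over 8 libraries, the names at the top cannot be told from chance.

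The factors that drive heat-shock genes were low to moderate in level. *Hsf1*, the main one, fell from 23.6 ± 1.42 to 18.6 ± 0.530 FPKM (SD, n = 4), or -0.32 in log2 fold change (adjusted p = 9.64e-05 by limma), while *Hspa1a*, *Hspa1b* and *Dnajb1* rose. *Hsf2* fell from 15.5 to 13.2 FPKM (log2 fold change -0.22, limma, adjusted p = 0.00304). *Hsf4* rose from 0.600 ± 0.302 to 2.02 ± 0.186 FPKM (log2 fold change 0.93, limma, adjusted p = 5.62e-05) and stayed the least expressed of the factors tested. As with *Hspa1a*, only 1 DMSO library of *Hsf4* reached 1 FPKM (1.05, 0.426, 0.425 and 0.499 FPKM), so it passed the filter through the DADA libraries, in which it is high. *Hsbp1*, whose product binds heat-shock factor 1 and holds it back, was at 25.7 and 27.7 FPKM (limma, adjusted p = 0.147), and *Hsf5* was below the filter at no more than 0.0265 FPKM. RNA levels give no measure of the activity of these factors.

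Other chaperones and their helpers were read, as RNA only, from 8 lists that together held 93 genes. Of these, 81 were tested and 12 were below the filter. Of the 81 genes, 13 rose (16.0%) and 52 fell (64.2%), beside 30.9% and 35.3% of all genes tested, and their median log2 fold change was -0.24. The heat-shock factors are 1 of these lists. Among other HSP70 and HSP110 proteins, 3 of 5 tested rose and 2 fell. *Hspa2* (1.72 to 2.85 FPKM, log2 fold change 0.50) and *Hspa4l* (6.68 to 9.32 FPKM, 0.43) rose, whereas *Hspa14* (81.4 to 58.1 FPKM, -0.48) and *Hspa4* (109 to 85.7 FPKM, -0.34), a relative of *Hsph1*, fell. The 14 other J-domain genes, for proteins outside the mitochondria, were divided, with 5 higher, 7 lower and 2 that did not pass. The number lower ranged from 5 to 7 under other processing. *Dnajb4*, a close relative of *Dnajb1*, rose from 5.90 to 11.4 FPKM (log2 fold change 0.85) and *Dnajc5* from 25.8 to 38.2 FPKM (0.55). The ribosome-bound *Dnajc2* fell from 132 to 95.9 FPKM (-0.46), and *Dnajc9*, which acts on histones, from 83.3 to 60.7 FPKM (-0.45). Of the 8 genes listed as exchange factors, BAG proteins and other HSP70 co-chaperones, 5 fell and 3 did not pass. Among them, *Hspbp1* was at 43.2 and 30.9 FPKM (-0.47) and *Bag1* at 91.2 and 71.0 FPKM (-0.36). Of the genes of small heat-shock proteins, 8 of 10 were below the filter, and *Hspb6* fell from 3.29 to 2.19 FPKM (-0.42).

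The genes of helpers of HSP90 and of mitochondrial folding mostly fell. Among all genes tested, 35.3% fell and 30.9% rose, and the counts in the lists stand beside these shares. Among 16 HSP90 co-chaperones, 10 fell (62.5%), 1 rose (6.25%) and 5 did not pass, with a median log2 fold change of -0.33. *Ppid*, a prolyl isomerase that binds HSP90, fell from 139 to 83.5 FPKM (log2 fold change -0.73, limma, adjusted p = 1.86e-09), and *Ahsa1*, which stimulates the ATPase of HSP90, from 113 to 79.7 FPKM (-0.50). *Fkbp5*, a glucocorticoid-induced co-chaperone of steroid receptors, rose from 43.4 to 55.5 FPKM (0.35). Of 18 mitochondrial chaperones and proteases, 12 fell (66.7%), 2 rose (11.1%) and 4 did not pass, with a median of -0.21. The number that fell ranged from 10 to 13 under other processing. *Trap1*, the mitochondrial HSP90, fell from 77.4 to 52.8 FPKM (-0.54) and the protease gene *Htra2* from 44.8 to 28.1 FPKM (-0.66), whereas *Afg3l2*, a protease of the inner membrane, rose from 39.4 to 65.0 FPKM (0.71) and *Dnajc15*, a J-domain protein of the import motor, from 24.2 to 31.0 FPKM (0.35). The genes of all 8 subunits of the cytosolic chaperonin TRiC, which folds actin and tubulin, fell. Their log2 fold changes lay between -0.42 and -0.14, with *Cct4* the lowest, from 258 to 192 FPKM. The smallest of these, *Tcp1* at -0.14, did not pass under quantile normalization (-0.06). Of the 6 prefoldin subunits, which hand actin and tubulin chains to TRiC, 5 fell and *Pfdn5* rose, from 77.6 to 87.1 FPKM (0.17). The largest fall among them was in *Pfdn2*, from 37.7 to 24.0 FPKM (-0.63).

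**Figure D4:**
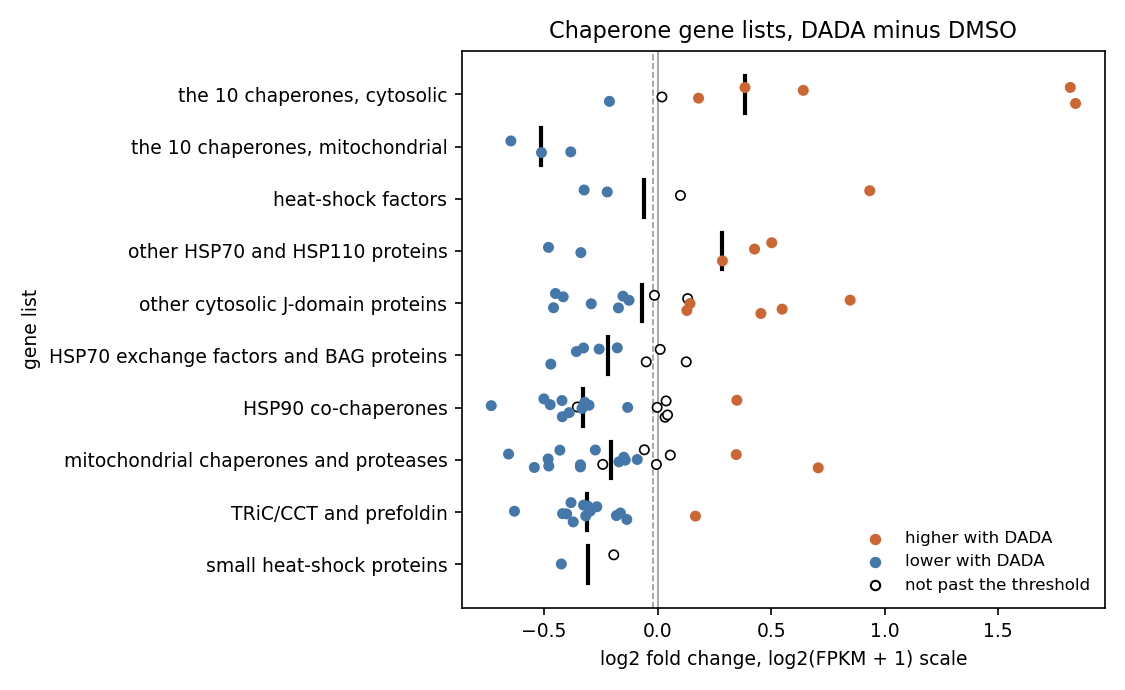
Log2 fold changes of the genes tested in each chaperone list, DADA against DMSO on the log2(FPKM + 1) scale, with a point for each gene (orange rose, blue fell, open did not pass), a bar at the median of the list and a dashed line at the median of all genes tested, -0.02. The 14 TRiC and prefoldin genes lie below 0 but for *Pfdn5*, and the cytosolic and mitochondrial chaperones described first have medians of 0.38 and -0.51.

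Other genes moved with the same contrast. Of 9 immediate-early genes, which answer to many kinds of stimulation and to handling of cells, 8 were tested, 7 were higher (87.5%, beside 30.9% of all genes tested) and 1 lower (12.5%, beside 35.3%), with log2 fold changes between -0.20 and 1.40. Their summed level was 338 to 366 FPKM with DMSO and 511 to 558 FPKM with DADA, and their part in the change of the inducible chaperones was not tested. The 7 CD8 T cell markers all passed as higher with DADA too, beside 30.9% of all genes tested, with a median log2 fold change of 0.28. They summed to 1026 to 1058 FPKM with DMSO and 1268 to 1302 FPKM with DADA. *Cd3g* overlapped between the groups, at 208 to 222 FPKM with DMSO and 220 to 232 FPKM with DADA (log2 fold change 0.08, limma, adjusted p = 0.0376). The summed level of the 5 NK cell markers, most of it from *Nkg7*, which CD8 T cells also express, was 328 to 344 FPKM with DMSO and 495 to 526 FPKM with DADA, and 3 of the 5 were below 1 FPKM in all libraries. *Eomes*, the other NK marker tested, fell from 13.7 to 10.5 FPKM (log2 fold change -0.36, limma, adjusted p = 2.94e-05). The 8 myeloid markers summed to 77.8 to 82.8 FPKM with DMSO and 67.0 to 71.7 FPKM with DADA, most of it from *Cst3*, which fell, whereas *Cd68* rose from 3.66 to 5.32 FPKM (log2 fold change 0.44, limma, adjusted p = 2.71e-05). The 6 B cell markers summed to 2.78 to 3.76 FPKM with DMSO and 3.23 to 4.40 FPKM with DADA, and the 4 CD4 T cell markers to 16.3 to 17.4 FPKM and 15.3 to 15.8 FPKM, 3 of them below 1 FPKM in all libraries. The part of these marker sums in the chaperone levels was not tested.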

How the data were processed

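Bulk RNA-seq of splenic mouse CD8+ T cells was analysed for 4 DMSO and 4 DADA libraries, grouped by their titles. The files that the authors deposited hold FPKM, with 1 value for a gene in a library. The submitters' processing notes list CASAVA 1.8.2, FastQC 0.11.9, HISAT2 2.0.5, StringTie 1.3.3, Picard 1.41 and SAMtools 0.1.18 without their roles. The notes name both a human and a mouse genome build, so positions are given only from RefSeq (GRCm38.p6), and the study and the labels name different library kits.

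These were set on the log2(FPKM + 1) scale, and 10666 genes were tested that had at least 1 FPKM in at least 4 of 8 libraries. They were fitted with limma 3.58.1 in R 4.3.3 (lmFit, 1 term for DADA, eBayes with a trend, Benjamini-Hochberg adjustment, threshold 0.05). Single values and 3 ratios were tested with two-sided exact permutation tests over 70 assignments. Simulated data with known changes served to check the fit. The 10 genes and the lists of helpers and markers were chosen with earlier results of these data known. Named were the 10 genes, all heat-shock factors, the 2 largest called changes in each direction of each chaperone list, and the 3 genes most alike in deviation. *Gm15459*, *Gm12346*, *Tcp1*, *Dnaja4*, *Yme1l1* and single markers were named after their values were seen.

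FPKM values hold no counts, so no count test was run. Depth was estimated from the steps of low values of 4431 genes with 1 transcript, as the smallest scale that brought them near whole fragments. A multiple of this scale would do as well. With it, 35.3% to 44.4% of the low values came out near whole fragments, beside 20% for evenly spread values. The scale was chosen on the same values, so part of this excess is built in. Shared stretches were counted in the longest coding transcript of each gene in GENCODE M21. Alternatives were a pseudocount of 0.1, no filter, a mean of at least 5 FPKM, quantile normalization, rescaling to TPM, the replicate block, eBayes with no trend, median-ratio scaling, *Hspa1a* and *Hspa1b* summed, and each library left out. A fit with no assembled transcripts was chosen after seeing the data. Python 3.11.15, numpy 2.4.6, pandas 2.3.3, scipy 1.17.1 and matplotlib 3.10.9 were used for ratios, sequences and figures.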

Additional observations from a re-analysis of the deposited data

Results flagged for a closer look

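*Hspe1* stood apart in 1 library. DMSO 4 was at 195 FPKM, whereas the other DMSO libraries were at 215 to 219 FPKM, and this gap was 0.833 of the range of all 4 libraries, above Dixon's 95% critical value. Of 28 groups of 4 libraries examined, this was the 1 above that value, and chance gives about 1 in 20, or 1.4 here. When single libraries were dropped, *Hspe1* kept a log2 fold change between -0.55 and -0.46 and an adjusted p-value under 0.05 (limma).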

How the results depend on the processing

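The 9 chaperone genes that passed the test kept their direction and their call under each alternative in which they were tested, and *Hsp90ab1* stayed without a call, with log2 fold changes between 0.00 and 0.05 and adjusted p-values between 0.0613 and 0.969 (limma). The sizes moved most for the low genes, as *Hspa1a* lay between 1.65 and 2.59 and *Hspa1b* between 1.73 and 2.40, both highest with a pseudocount of 0.1. Testing only genes with a mean of 5 FPKM or more left 3 higher, since *Hspa1a* and *Hspa1b* were no longer tested, and summing both genes into 1 value also left 3 of the single genes higher. Over all genes, between 5741 and 7868 passed, and the scalings moved the median log2 fold change of all genes by less than 0.1. In the other chaperone lists together, 11 to 13 genes were higher and 49 to 53 lower. Of the listed genes, 5 lost their call in some alternative, most often *Dnaja4* (9 of 18 alternatives) and *Yme1l1* (8 of 18).

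The replicate numbers are shared between the groups, but the deviations of same-numbered libraries correlated at only 0.10, -0.12, -0.09 and 0.08. Of the 8 libraries, 1 correlated best with its own number, so no shared effect of the number was seen. This cannot exclude that same-numbered libraries share a mouse or a culture, which is not stated. With the replicate number as a block, 6995 genes passed and the 9 chaperone genes kept their calls. For the ratios, the paired test with 4 pairs cannot go below p = 0.125 (exact permutation test), which it gave for *Hsp90aa1* over *Hsp90ab1* (-0.23) and for *Hspa1a* plus *Hspa1b* over *Hspa8* (2.19). With each library left out, the *Hspd1* over *Hspe1* difference ranged from -0.17 to -0.10, and it passed only without DADA 1 (-0.17, exact permutation test, p = 0.0286); the cause was not tested. The estimated depth limits *Hspa1a* most, at 29.0 to 45.0 fragments in a DMSO library.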
